A study of Mus musculus with 2 samples.

Results

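Oxidative phosphorylation is carried out by 5 protein complexes of the inner mitochondrial membrane, and 98 of the 27998 gene rows in the deposited tables were taken as its members by their symbols. The rule took the Nduf, Sdh, Uqcr, Cox4 to Cox8 and Atp5 families from the nucleus and the mt-Nd, mt-Cytb, mt-Co and mt-Atp genes of the mitochondrial DNA (mtDNA), and left assembly factors out. It gave 38 nuclear and 7 mtDNA genes for complex I, 4 nuclear genes for complex II, 8 and 1 for complex III, 18 and 3 for complex IV, and 17 and 2 for complex V.

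Complexes I to IV form the respiratory chain. Complex I (NADH dehydrogenase) and complex II (succinate dehydrogenase) pass electrons to ubiquinone, complex III (the cytochrome bc1 complex) passes them to cytochrome c, and complex IV (cytochrome c oxidase) passes them to oxygen. Complexes I, III and IV pump protons, and complex V (ATP synthase) makes ATP as the protons flow back. All but complex II mix subunits from both genomes, so both have to be read for a complex to be built. NK cells use this pathway together with glycolysis when they are activated, and HIF-1, of which Hif1a encodes the oxygen-regulated subunit, is known for shifting cells in low oxygen towards glycolysis.

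The cells came from tumors in mice that had received RMA-S cells, a mouse lymphoma line, under the skin 2 weeks earlier. They had been sorted as NK1.1-positive and CD3ε-negative and made into 10x 3′ libraries, which count each captured transcript once by a unique molecular identifier (UMI), whatever its length. The KO library came from mice with Hif1a deleted in NK cells and the WT library from wild-type mice. The comparison asks how expression in tumor NK cells relates to loss of Hif1a in them. The labels do not give the Cre driver, the strain or age of the mice, or how many mice or tumors a library holds. With 1 library per genotype there is no replicate check, no test was made, and every difference below is between 2 libraries, with intervals that cover counting error only.

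Of 3110 deposited KO and 3574 deposited WT barcodes, 3067 and 3555 passed the filters of at least 500 genes and at most 10% mitochondrial UMIs. Both tables shared 19 barcode sequences. NK-like cells numbered 2873 in the KO library, with 12211598 UMIs and a median of 3746 per cell, and 3295 in the WT library, with 17967635 UMIs and a median of 4418. All 17 NK markers were detected in them, and the T cell list summed to 210 and 207 counts per 1e6 UMIs (CPM) in KO and WT cells. Hif1a itself had 59.9 CPM (731 UMIs) in KO and 58.7 CPM (1054 UMIs) in WT cells, and since 3′ tags can lie outside the deleted part this checks nothing about the deletion. Sub-clusters of the NK-like class were filled unequally: sub-cluster 0, with Nr4a1, Nfkbid and Csrnp1 as leading genes, held 1546 KO and 130 WT cells.

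Over all NK-like cells, nuclear genes of the respiratory complexes were a little lower in the KO library, nearly throughout. The mtDNA genes were close to level in this sum, but not in each sub-cluster. In NK-like cells the 85 nuclear members summed to 20093 CPM in KO cells (exact 95% Poisson interval 20014 to 20173) and 23149 CPM in WT cells (23078 to 23219). The log2 ratio of KO over WT was -0.20 (-0.21 to -0.20). The 13 mtDNA members summed to 12538 CPM (12476 to 12601) and 13099 CPM (13046 to 13152), a log2 ratio of -0.063 (-0.072 to -0.054). Members of both genomes together made up 3.26% of KO and 3.62% of WT UMIs.

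Of the nuclear members, 76 of 85 reached 200 UMIs over both libraries, and 72 of these 76 were lower in KO cells, where 43.3% of all 7968 genes with that many UMIs were. Their median log2 ratio was -0.23, against 0.045 over all genes. A ratio of -0.32 or lower, called the size threshold below, was reached by 9, against 8.61% of all genes, and 0 reached 0.32 in the other direction, against 17.2%. At 1.5-fold 0 were lower and 0 higher, against 2.64% and 5.71% of all genes. The difference was thus many small ratios of 1 sign rather than a few large ones. Among genes with at least 2000 UMIs, where counting error is smallest, 68 of 71 nuclear members were lower in the KO library, against 51.1% of 1977 genes. The shares past a fold are not given at that depth, and shallower genes pass a fold more easily by counting error. Of the mtDNA members 12 of 13 reached 200 UMIs, 7 of them were lower in the KO library, and 0 passed the size threshold in either direction.

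**Figure D1:**
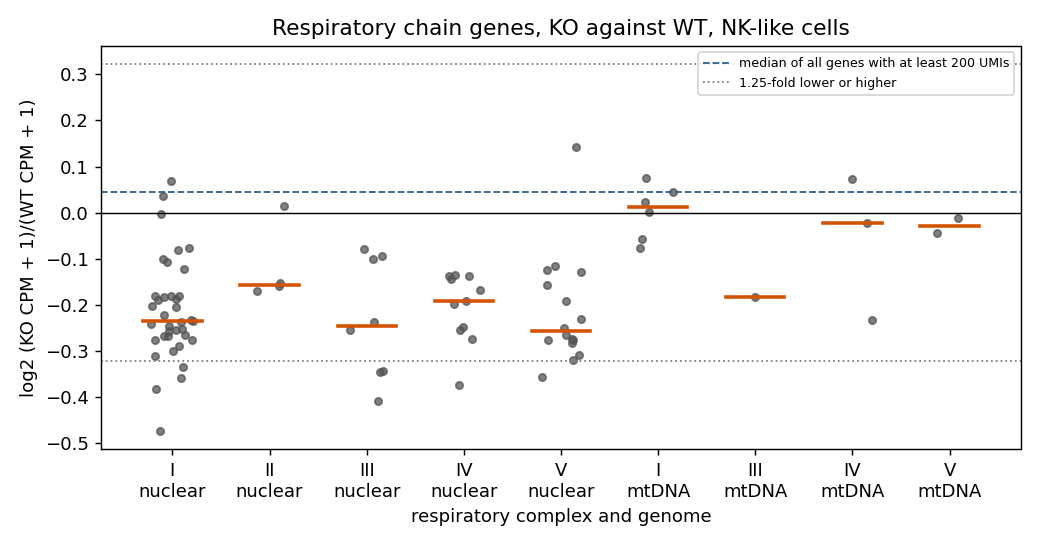
Log2 of KO over WT CPM in NK-like cells (y axis) for each respiratory gene with at least 200 UMIs, by complex and genome (x axis); orange bars are medians, the dashed line is the median of all genes and dotted lines mark the size threshold of 0.32 in both directions. Most nuclear points lie below 0, while the mtDNA genes of complexes I, IV and V lie on both sides of it or close to it.

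The size of the nuclear difference moved with the make-up of the cells. Once the KO sub-clusters were given the WT proportions, the log2 ratio of the nuclear sum was -0.092. Of the 76 members, 64 were lower in the KO library and 0 passed the size threshold, against 4.61% of all genes. Without sub-cluster 0 the ratio was -0.087, with 62 of 76 lower and 0 past the threshold, against 5.06% of all genes. The median log2 ratio over all genes was 0.063 and 0.062 in these settings, in that order. Scaled to UMIs outside mitochondrial and ribosomal protein genes, or with median-ratio size factors, 15 and 19 members passed it. The share of all genes was then 11.0% and 11.1%. Proliferation genes differed between the libraries too: 21 of 21 measured S and G2M genes were lower in KO cells (median log2 ratio -1.22), against 43.3% of all genes. Leaving out the cycling sub-cluster, with 19 KO and 132 WT cells, left 3 members past the threshold, against 5.84% of all genes. The nuclear ratio was then -0.19. Hemoglobin RNA summed to 296 CPM in KO and 781 CPM in WT NK-like cells, and cytoplasmic ribosomal protein genes took 25.03% and 27.12% of UMIs. Among markers of other cells, the basophil or mast list summed to 1.56 CPM in KO and 17.9 CPM in WT NK-like cells, with Fcer1a and Ms4a2 at 0 UMIs in both, the neutrophil list to 3.77 and 0.557 CPM, and the myeloid list to 19.7 and 16.6 CPM. What part these differences have in the result was not tested.

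The members were expressed at very different levels, in nearly the same order in both libraries. Nuclear members with at least 200 UMIs ran from 22.03 to 1011 CPM in KO cells (median 193) and from 19.9 to 1111 CPM in WT cells (median 239). The mtDNA members ran from 61.0 to 3053 CPM and from 61.5 to 3149 CPM. Across the 88 measured members, Pearson's r of log2 CPM between the libraries was 0.996, a description over genes that are not independent.

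**Figure D2:**
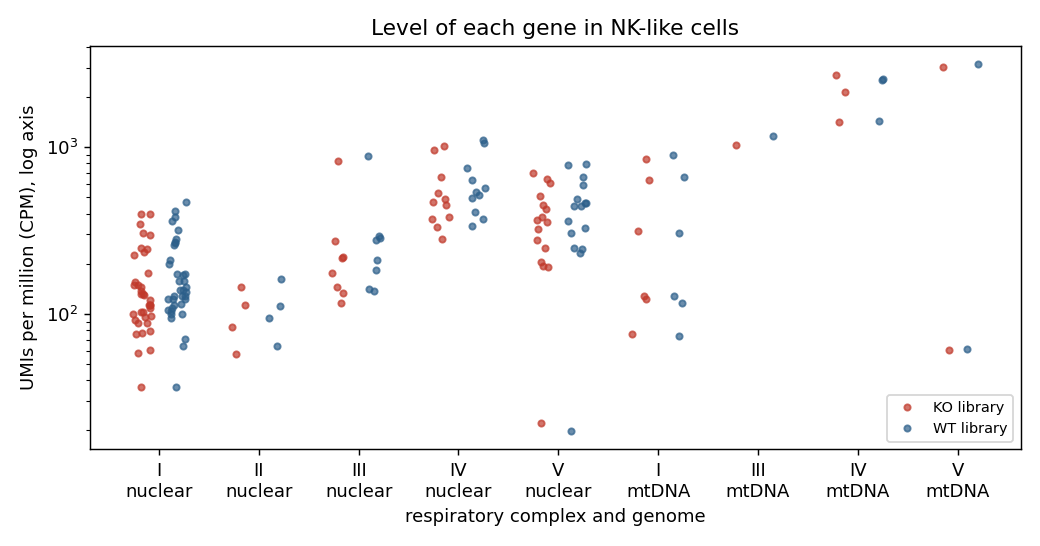
CPM in NK-like cells (y axis, log scale) for each respiratory gene with at least 200 UMIs, by complex and genome (x axis), with 1 point per gene in the KO (red) and WT (blue) library. The 4 highest points of each library are mtDNA genes, and complex II has the narrowest and lowest set of nuclear genes among complexes II to V apart from 1 Atp5 gene near 20 CPM.

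Promoters of the nuclear members were read because most of these genes had ratios of 1 sign. RefSeq windows of GRCm38.p6, from 250 bases before to 50 after a gene's start, matched 70 of the 85 nuclear members, with 76 windows. The NRF1 motif, GCGC and TGCGC with any base between them, on either strand, was present in 23.7% of these 76 windows and in 4.6% of all 32851 windows. Shown here are 4 of the matches to give the motif in upstream sequence, with the 10 bases that match in capitals and each window on its gene's own strand:
Cox6a1, chr5:115349096-115349135, minus strand: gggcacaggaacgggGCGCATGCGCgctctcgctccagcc
Sdha, chr13:74350314-74350353, minus strand: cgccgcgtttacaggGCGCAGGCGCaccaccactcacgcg
Sdhd, chr9:50603904-50603943, minus strand: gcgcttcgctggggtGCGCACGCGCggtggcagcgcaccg
Ndufa11, chr17:56717687-56717726, plus strand: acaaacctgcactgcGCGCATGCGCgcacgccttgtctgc

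The YY1 motif AAGATGGCG was in 11.8% of the member windows and 1.4% of all windows, and the estrogen-related receptor motif AAGGTCA in 10.5% and 4.72%. The hypoxia response core ACGTG, the letters HIF-1 is known to bind, was in 27.6% and 19.6%. No match of one of these motifs overlapped a match of another in the member windows. Members with an NRF1 match had a median log2 ratio of -0.19 over 17 genes, and those without -0.24 over 48. For ACGTG the medians were -0.19 over 16 genes and -0.24 over 49. A match of letters is a description of the window and shows no binding.

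Complex I takes electrons from NADH. Its 38 nuclear members summed to 5728 CPM in KO and 6582 CPM in WT cells, a log2 ratio of -0.20 (-0.21 to -0.19). Of the 37 measured, 35 were lower in the KO library, against 43.3% of all genes, and 4 passed the size threshold, against 8.61%. The 7 core subunits, which carry the flavin and the iron-sulfur clusters, had a median log2 ratio of -0.18. The 30 measured accessory subunits, which surround the core, had a median of -0.24. The ratios of their sums were closer, -0.17 and -0.20.

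Ndufs8 (chr19:3908863-3912774), a core subunit that holds 2 iron-sulfur clusters, had the lowest ratio of any measured member. It had 75.6 CPM in KO cells (70.8 to 80.6) and 105 CPM in WT cells (101 to 110), a log2 ratio of -0.47 (-0.59 to -0.36). The next within complex I were the accessory subunits Ndufc1, with 76.6 and 100 CPM (-0.38), Ndufv3, with 155 and 199 CPM (-0.36), and Ndufb2, with 97.2 and 123 CPM (-0.33). Their intervals between the libraries did not overlap. The most abundant nuclear gene of complex I in the WT library was the accessory subunit Ndufa13, with 398 CPM in KO and 468 CPM in WT cells, a log2 ratio of -0.23.

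Ndufa6, another accessory subunit, had a ratio of the other sign: 398 CPM in KO (387 to 410) and 380 CPM in WT cells (371 to 389), a log2 ratio of 0.068 (0.015 to 0.12). The core subunit Ndufs7, which carries the last iron-sulfur cluster before ubiquinone, had 131 CPM in KO and 128 CPM in WT cells, a log2 ratio of 0.036. Ndufs1, the largest core subunit, was level at 36.5 and 36.6 CPM. The intervals of Ndufs7 (-0.057 to 0.13) and Ndufs1 (-0.18 to 0.17) included 0, and Ndufa6 had a ratio of -0.073 in cells with no S or G2M UMI, so its sign did not hold.

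Ndufa4, listed under complex I by its symbol although its protein is now counted as a subunit of complex IV, had 345 CPM in KO and 413 CPM in WT cells, a log2 ratio of -0.26. Its paralog Ndufa4l2, known as a HIF-1 target in other cells, had 0 UMIs in KO and 3 in WT cells.

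Complex II oxidizes succinate and is the only one built without mtDNA genes. Its 4 members summed to 401 CPM in KO and 434 CPM in WT cells, a log2 ratio of -0.11 (-0.17 to -0.063), the smallest nuclear difference of the 5 complexes. Sdha, the flavoprotein that binds succinate, was level at 113 CPM in KO (108 to 120) and 112 CPM in WT cells (107 to 117). Sdhb, the iron-sulfur subunit, had 146 and 163 CPM (-0.16). The membrane anchors Sdhc and Sdhd had 57.8 and 64.4 CPM (-0.15) and 83.7 and 94.3 CPM (-0.17). Given the WT proportions of sub-clusters, the sum of complex II had a log2 ratio of 0.018, so its sign did not hold.

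Complex III summed over its 8 nuclear members to 2103 CPM in KO and 2414 CPM in WT cells, a log2 ratio of -0.20 (-0.22 to -0.18). All 8 were lower in the KO library, against 43.3% of all genes. Cyc1, the cytochrome c1 subunit of this complex, falls outside the rule by its symbol. It had 102 CPM in KO and 105 CPM in WT cells (-0.034), and its interval of -0.14 to 0.070 included 0. The small subunit Uqcr10 (chr11:4701973-4704342) had 216 CPM in KO (208 to 224) and 287 CPM in WT cells (280 to 295), a log2 ratio of -0.41 (-0.48 to -0.34). Uqcr11 and Uqcrq, also small subunits, had ratios of -0.35 and -0.34. Uqcrh, the hinge protein that helps cytochrome c dock and the most abundant nuclear gene of this complex, had 824 and 883 CPM, a ratio of only -0.10. The core protein Uqcrc1 had 134 and 141 CPM, and its interval of -0.17 to 0.011 included 0. The hinge gene was thus the largest single part of the sum in both libraries, with a ratio closer to level than those of Uqcr10, Uqcr11 and Uqcrq.

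Complex IV summed over its 18 nuclear members to 5950 CPM in KO and 6814 CPM in WT cells, a log2 ratio of -0.20 (-0.21 to -0.18). All 11 measured members were lower in the KO library, against 43.3% of all genes, in a narrow range from -0.37 to -0.14. Cox4i1, a regulatory subunit and the most abundant nuclear respiratory gene, had 1011 CPM in KO (993 to 1029) and 1111 CPM in WT cells (1095 to 1126), a ratio of -0.14. Cox8a, a small membrane subunit, had 967 and 1068 CPM, also -0.14. Cox5b (chr1:36691449-36693681), which binds zinc, stood at the low end with 384 CPM in KO (373 to 395) and 498 CPM in WT cells (487 to 508), a ratio of -0.37 (-0.43 to -0.32).

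Several complex IV subunits exist as paralogs with tissue preferences, and these cells used 1 set of them. Cox4i2, the alternative to Cox4i1 that is known to be HIF-1 dependent in other cells, had 0 UMIs in both libraries, as did Cox8b, Cox8c and Cox7b2. Taking 3 UMIs as the limit that a count of 0 allows, these genes could be present at up to 0.246 CPM in KO and 0.167 CPM in WT cells. The heart and muscle form Cox7a1 had 1.23 and 1.34 CPM, against 448 and 514 CPM for the common form Cox7a2. Cox6b2, known from testis, had 3.60 and 3.95 CPM, against 468 and 566 CPM for Cox6b1. Cox7a2l, whose protein joins complexes III and IV into supercomplexes, had 488 and 537 CPM.

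Cox6a2, the muscle form of Cox6a1, was found in few cells. In NK-like cells it had 2.46 CPM (30 UMIs) in KO and 7.79 CPM (140 UMIs) in WT cells, where its common form Cox6a1 had 370 and 407 CPM. In the WT library 10 cells held 35.7% of these Cox6a2 UMIs. Outside the NK-like class a cluster of 12 cells, 6 from each library, had 333 CPM (18 UMIs) in KO and 901 CPM (123 UMIs) in WT cells. That cluster, led by Gm525, Insl5, Rhox5, Mt2 and Mt1, was given no cell type name. It also had the highest nuclear sum of all clusters, 39165 CPM in KO and 43700 CPM in WT cells.

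Complex V summed over its 17 nuclear members to 5911 CPM in KO and 6905 CPM in WT cells, a log2 ratio of -0.22 (-0.24 to -0.21). Of the 16 measured, 15 were lower in the KO library, against 43.3% of all genes. The 5 genes of the catalytic head and central stalk, which turn rotation into ATP, had a median log2 ratio of -0.16. The 10 genes of the membrane part and peripheral stalk, which conduct protons and hold the head still, had a median of -0.28. The ratios of their sums were closer, -0.20 and -0.24, and the ranges overlapped, at -0.28 to -0.12 and -0.36 to -0.13. Atp5o, the stalk subunit that grips the head, was lowest with 194 CPM in KO (187 to 202) and 249 CPM in WT cells (242 to 257), a ratio of -0.36 (-0.43 to -0.29). Atp5l of the membrane part and Atp5e of the central stalk, both abundant, had 698 and 797 CPM (-0.19) and 643 and 783 CPM (-0.28).

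Atp5g1, Atp5g2 and Atp5g3 encode 1 and the same mature ring subunit, with different import sequences. Atp5g2 (chr15:102662864-102672352) was the most abundant, with 356 CPM in KO and 444 CPM in WT cells (-0.32). Atp5g1 had 192 and 232 CPM (-0.27) and Atp5g3 had 204 and 246 CPM (-0.27). Within sub-clusters their ratios could differ in sign: Atp5g1, Atp5g3 and Atp5g2 had 0.27, 0.065 and -0.15 in sub-cluster 1, and 0.16, 0.15 and -0.16 in sub-cluster 5. The only measured complex V gene above 0 was Atp5sl, now called Dmac2 and known as a complex I assembly factor, with 22.03 and 19.87 CPM. Its interval of -0.085 to 0.38 included 0.

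The mtDNA members are transcribed together on long precursors and cut apart, yet their CPM differed widely. In order along the mitochondrial genome, mt-Nd1 had 853 CPM in KO and 900 CPM in WT cells, mt-Nd2 had 312 and 307, mt-Co1 had 2707 and 2574, and mt-Co2 had 1409 and 1431. They were followed by mt-Atp8 with 61.0 and 61.5 CPM, mt-Atp6 with 3053 and 3149, mt-Co3 with 2144 and 2521, and mt-Nd3 with 123 and 116. The last were mt-Nd4l with 75.7 and 73.4 CPM, mt-Nd4 with 636 and 661, mt-Nd5 with 128 and 128, mt-Nd6 with 6.31 and 6.79, and mt-Cytb with 1031 and 1170. mt-Atp6 and the 3 mt-Co genes were thus the highest, and mt-Nd6, which alone lies on the other strand, the lowest with 77 and 122 UMIs.

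Some neighbours overlap, so their UMIs cannot be told apart where a tag falls in shared sequence. The overlap of mt-Atp8 and mt-Atp6, which sit on 1 transcript, is shown because the UMI counts of these 2 genes differ so widely. Since 3′ libraries read tags near 1 end of a transcript, UMIs of 2 genes on 1 transcript do not measure separate levels. In mm10, capitals mark the start codon of mt-Atp6 and the stop codon of mt-Atp8:
mt-Atp8 and mt-Atp6, chrM:7927-7969, plus strand: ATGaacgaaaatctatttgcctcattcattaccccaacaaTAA
mt-Nd4l and mt-Nd4 overlap in the same way over 7 bases (chrM:10167-10173), and also share 1 transcript.

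Among mtDNA members with at least 200 UMIs, the lowest ratios were those of mt-Co3 and mt-Cytb. mt-Co3 (chrM:8607-9390), a subunit of the oxidase core, had a log2 ratio of -0.23 (-0.26 to -0.21), and mt-Cytb (chrM:14145-15288), a catalytic subunit of complex III, -0.18 (-0.21 to -0.15). By contrast mt-Co1 (chrM:5328-6872), the catalytic subunit of complex IV, had a ratio of 0.072 (0.052 to 0.093). Among the 6 sub-clusters with at least 100 cells of both libraries, mt-Co1 was higher in KO cells in sub-clusters 1 (0.12) and 2 (0.094). Its ratios in sub-clusters 0, 3, 4 and 5 ran from -0.058 to -0.033, with intervals that included 0. The intervals of mt-Nd2, mt-Nd3, mt-Nd4l, mt-Nd5, mt-Co2 and mt-Atp8 included 0.

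**Figure D3:**
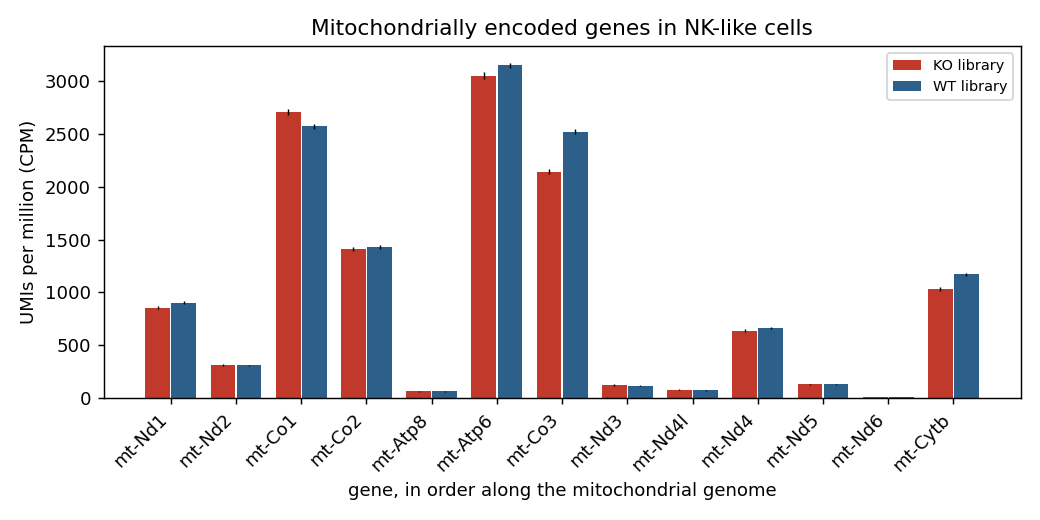
CPM in NK-like cells (y axis, from 0) for the 13 mtDNA genes in genome order (x axis), KO in red and WT in blue, with exact 95% Poisson intervals. mt-Co3 (2144 and 2521) and mt-Cytb (1031 and 1170) are lower in the KO library, mt-Co1 (2707 and 2574) is higher, and the other pairs are close.

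UMIs from mtDNA per nuclear respiratory UMI came to 0.624 in KO and 0.566 in WT cells over the whole NK-like class. In sub-cluster 0, which holds most KO cells, the values were 0.632 and 0.623. They were lower in KO cells in sub-clusters 3 (0.556 and 0.576) and 4 (0.514 and 0.521), and higher in sub-clusters 1, 2, 5 and 6. Cells thinned to 2500 UMIs each, which left out 401 KO and 88 WT cells as too shallow, held a median of 48 nuclear respiratory UMIs in KO and 55 in WT cells, from 2472 and 3207 cells. The median of mtDNA UMIs was 28 and 30. The variance over the mean across cells was 2.05 and 1.69 for nuclear members, and 7.43 and 7.31 for mtDNA members. Single cells therefore varied far more in their mtDNA than in their nuclear respiratory UMIs. After thinning, 16.2% of KO cells (exact Clopper-Pearson 95% interval 14.8% to 17.7%) and 20.5% of WT cells (19.1% to 21.96%) held an Ndufs8 UMI, and 39.4% (37.4% to 41.3%) and 48.0% (46.3% to 49.8%) a Uqcr10 UMI. The nuclear log2 ratio after thinning was -0.19.

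Within the NK-like sub-clusters the nuclear difference was smaller but had the same sign in all 7. In sub-cluster 0 the nuclear sum was 18447 CPM in KO and 20795 CPM in WT cells, a log2 ratio of -0.17 (-0.20 to -0.15), with 63 of 76 members with at least 50 UMIs lower in KO cells, against 43.6% of all such genes there. Sub-cluster 4, led by Klrg1, Itgb2 and Gzmb, had 20964 and 23070 CPM (-0.14) and 63 of 76 lower, against 47.8%. Sub-cluster 2, led by Ltb, Zfp512 and Ccr2, had 22310 and 24162 CPM (-0.12) and 59 of 76 lower, against 35.6%. Sub-cluster 3, led by the heat shock and early response genes Hspa1a, Fos and Jun, had 20310 and 21642 CPM (-0.092) and 62 of 76 lower, against 42.9%. Sub-cluster 1, led by Emb, Cd27 and Tcf7, had 21561 and 22625 CPM (-0.070) and 52 of 77 lower, against 44.9%. The smallest ratio, -0.037 (-0.061 to -0.013), was that of sub-cluster 5, led by Gpx8, S1pr5 and Zeb2, with 22429 and 23011 CPM and 43 of 75 lower, against 39.6%. In the cycling sub-cluster 6, led by Birc5, Ccna2 and Mki67, 53 of 75 were lower, against 51.4%.

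Counted by gene, 15 nuclear members were lower in the KO library in each of the 6 sub-clusters with at least 100 cells of both libraries, and 0 were higher in each. Among all 7968 genes, 3.89% were lower in each. These shares are not matched for depth: 71 of the 76 measured nuclear members had at least 2000 UMIs, but only 1977 of all 7968 genes did. No minimum was set within a sub-cluster here, and genes with few UMIs change sign more easily by counting error. The 15 were Cox5b, Ndufa8, Atp5e, Ndufb5, Ndufc1, Uqcrc2, Atp5d, Atp5l, Cox7a2, Uqcr10, Uqcrq, Atp5g2, Atp5o, Ndufv3 and Cox7a2l, which belong to complexes I, III, IV and V. Of the mtDNA members, mt-Co3 and mt-Nd4 did so. Many of these ratios were small: Uqcr10 ranged from -0.39 in sub-cluster 2 (247 and 323 CPM) to -0.029 in sub-cluster 5 (250 and 256 CPM). Cox5b ranged from -0.36 in sub-cluster 2 (405 and 519 CPM) to -0.0028 in sub-cluster 5 (495 and 496 CPM). For mt-Co3 the range was -0.32 in sub-cluster 3 (1924 and 2410 CPM) to -0.064 in sub-cluster 5 (1926 and 2013 CPM).

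The mtDNA sum behaved differently between sub-clusters. It was lower in the KO library in sub-cluster 0 with 11660 and 12965 CPM (-0.15), in sub-cluster 3 with 11302 and 12463 CPM (-0.14) and in sub-cluster 4 with 10778 and 12025 CPM (-0.16). Sub-clusters 1 and 5 were level, with 13942 and 13868 CPM (0.0077) and 10942 and 10846 CPM (0.013), and both intervals included 0. Sub-cluster 6 had 17705 CPM in 19 KO cells and 14101 CPM in 132 WT cells, a log2 ratio of 0.33 that rests on few KO cells. Without sub-cluster 0 the mtDNA sum of all NK-like cells had a ratio of 0.041, so its sign did not hold.

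**Figure D4:**
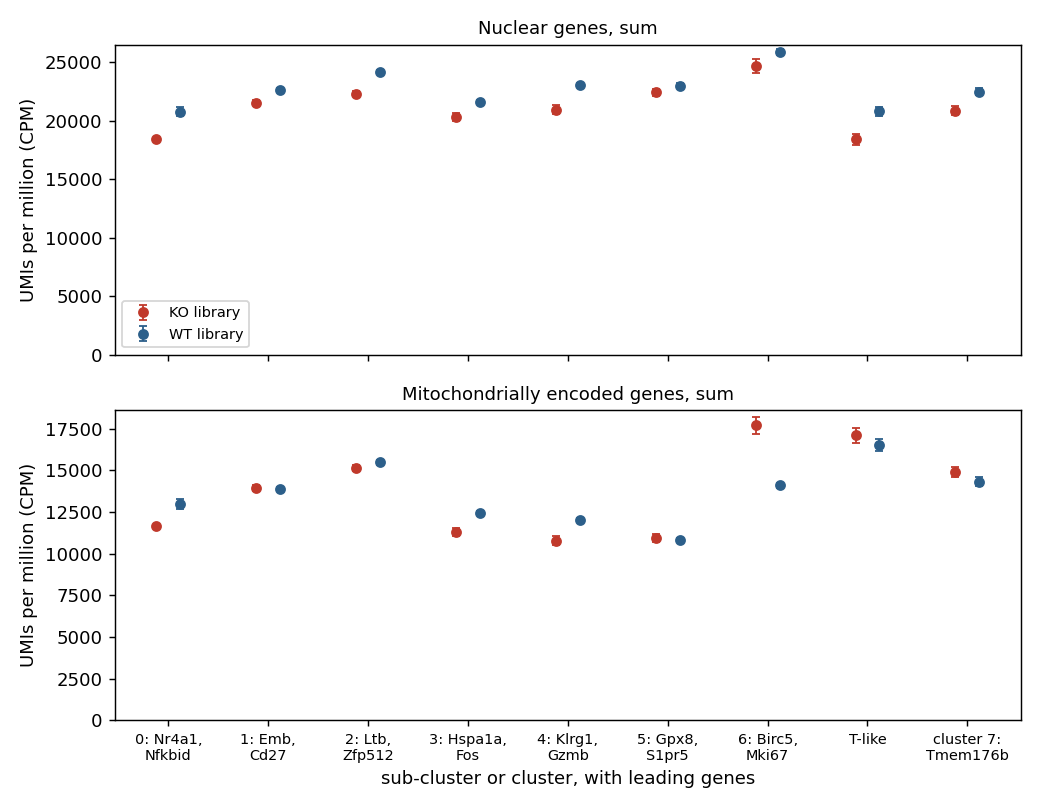
Summed CPM (y axes, from 0) of the nuclear (top) and mtDNA (bottom) members in each NK-like sub-cluster, the T-like cluster and cluster 7 (x axis), KO in red and WT in blue, with exact 95% Poisson intervals. The nuclear KO points lie below the WT points in each; the mtDNA points do so in sub-clusters 0, 2, 3 and 4 and lie the other way most in sub-cluster 6.

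Sub-clusters also differed from each other inside 1 library. Sub-cluster 0 had the lowest nuclear sum of the NK-like sub-clusters in both libraries. Against the other NK-like cells of the same library it was lower in 72 of 76 members in the KO library, where 58.3% of all genes were, and in 67 of 76 in the WT library, where 56.2% were. Sub-cluster 6 had the highest nuclear sum, 24667 and 25893 CPM, and was higher than the other cells in 60 and 63 of the 76 members, against 43% and 46.1% of all genes. Its cells were also the deepest, with medians of 14826 and 13384.5 UMIs. The cells a sub-cluster is set against differ between the libraries, since sub-cluster 0 holds most KO cells.

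Nuclear and mtDNA members moved together in some of these groups and apart in others. Sub-cluster 2 was higher than the other NK-like cells in 66 of 76 nuclear members in the KO and 57 of 76 in the WT library, and likewise in 12 of 12 mtDNA members of the KO and 11 of 12 of the WT library, against 56.1% and 40.4% of all genes. Sub-cluster 5 was lower in 11 of 12 and 12 of 12 mtDNA members, against 46.5% and 53%. Its nuclear members were lower in 14 of 76 in the KO and 42 of 76 in the WT library, against the same shares, so the libraries differed. It had the lowest number of mtDNA UMIs per nuclear respiratory UMI, 0.488 in KO and 0.471 in WT cells. In sub-cluster 4 the mtDNA members were lower in 11 and 10 of 12, against 54% and 55%, while its nuclear members went both ways, with 51 and 35 of 76 higher, against 46% and 45%.

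The T-like cluster, led by Cd3e, Cd3d and Cd3g with 70 KO and 109 WT cells, differed from NK-like cells mainly in its mtDNA members. Its nuclear members were lower than in NK-like cells in 58 and 61 of 76, against 63.5% and 60.4% of all genes, while its mtDNA members were higher in 12 and 11 of 12, against 36.5% and 39.6%. Its ratio of mtDNA to nuclear respiratory UMIs, 0.929 in KO and 0.793 in WT cells, was the highest of the groups compared. Between the libraries, its nuclear sum was 18416 and 20833 CPM, a log2 ratio of -0.18 (-0.22 to -0.13), with 57 of 73 members lower in KO cells, against 50.9%. Cluster 7, led by Tmem176b, Tmem176a and Il7r with 118 KO and 145 WT cells and given no cell type name, had 20885 and 22503 CPM (-0.11) and 51 of 75 lower, against 47.2%. A lower nuclear sum in the KO library was thus also measured in cells that the clustering set outside the NK-like class. NK markers were nevertheless the most widely detected list in both groups. On average a marker of that list was found in 63.0% of cluster 7 and 59.3% of T-like cells, and a T marker in 7.83% and 35.9%. At resolution 0.4 only 6 KO and 6 WT cells stayed unnamed, so the line between cluster 7 and NK-like cells depends on the setting.

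Genes that build or regulate the complexes were read from other lists. Of the measured assembly factors, 9 of 12 for complex I were lower in KO cells (median log2 ratio -0.084), and 23 of 29 for complexes II to V (median -0.20), against 43.3% of all genes. The list of mitochondrial ribosomal proteins, which translate the mtDNA genes, was closest to the nuclear members: 72 of 74 were lower, against 43.3% of all genes, and 20 passed the size threshold, against 8.61%, with a median of -0.25. Mrpl47 had 7.70 and 13.2 CPM (-0.71) and Mrpl27 had 19.5 and 30.9 CPM (-0.64). In the tricarboxylic acid cycle list, which feeds the chain with NADH and succinate, 17 of 19 were lower, again against 43.3%, with a median of -0.14. Mdh2, which makes oxaloacetate and NADH from malate, had 179 and 216 CPM (-0.28).

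A list of 15 electron carriers and inner membrane exchange genes held some larger ratios. Of these 15, 10 were lower in KO cells, against 43.3% of all genes, and 4 passed the size threshold, against 8.61%. Slc25a4, an ADP/ATP carrier, had 83.9 CPM in KO and 149 CPM in WT cells, a log2 ratio of -0.82 (-0.93 to -0.72). The more abundant ADP/ATP carrier Slc25a5 had 584 and 702 CPM (-0.27). Cycs, which encodes cytochrome c, and the phosphate carrier Slc25a3 went the other way, with 299 and 254 CPM (0.23) and 434 and 418 CPM (0.054). Atpif1, the inhibitor of ATP hydrolysis by complex V, had 89.6 and 138 CPM, a ratio of -0.62 (-0.73 to -0.52). Pdk1, which shuts pyruvate out of the mitochondria's oxidation and is a known HIF-1 target, had 11.5 and 17.3 CPM (-0.55), and Bnip3, another known target that acts in mitophagy, 9.99 and 12.6 CPM (-0.31). The median of the 11 measured HIF-linked mitochondrial genes was -0.029, with 7 lower, against 43.3% of all genes.

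Regulators of mitochondrial biogenesis went the other way. Of 13 listed, 6 were measured, and 7 such as Ppargc1a and Ppargc1b had under 200 UMIs. Of the 6, 4 passed the size threshold upwards, against 17.2% of all genes, and the median log2 ratio was 0.42. The 1 lower gene was Gabpa, the DNA-binding partner of Gabpb1, with 20.6 and 22.7 CPM (-0.13). Myc, a transcription factor that drives growth, had 57.3 and 35.1 CPM (0.69), and Gabpb1, a subunit of the factor NRF-2, 40.4 and 27.8 CPM (0.52). Nrf1, whose motif is described above, had 49.9 CPM in KO and 36.6 CPM in WT cells (0.44). In the list for mtDNA upkeep and transcription 6 of 12 were lower, against 43.3% of all genes, with a median near 0. Tfam, which packages and transcribes mtDNA, had 66.3 and 48.9 CPM (0.43), and Slirp, which stabilizes mtDNA transcripts, 62.8 and 84.3 CPM (-0.42). Higher regulator RNA and lower subunit RNA were thus measured side by side in the KO library. The regulator ratios are given over all NK-like cells together and not by sub-cluster. What part the make-up of the cells has in them was not tested.

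**Figure D5:**
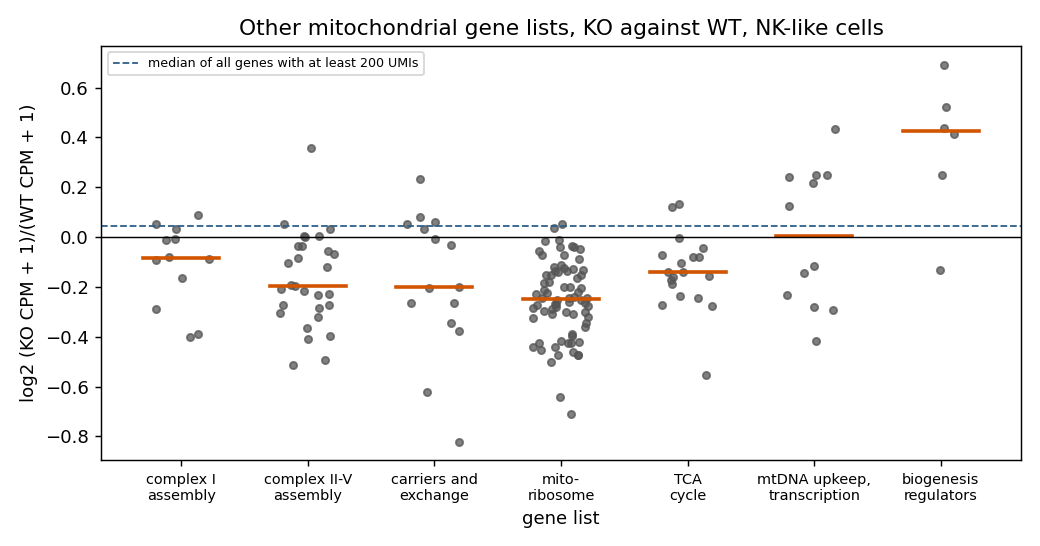
Log2 of KO over WT CPM in NK-like cells (y axis) for genes with at least 200 UMIs in 7 mitochondrial lists (x axis); orange bars are medians and the dashed line is the median of all genes. The mitochondrial ribosomal proteins lie mostly below 0 (72 of 74), and 5 of the 6 biogenesis regulators lie above it. Of all genes with at least 200 UMIs, 43.3% lie below 0.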

How the data were processed

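Per the labels, tumor-infiltrating NK cells were profiled as 10x 3′ libraries. The deposited files hold raw UMI counts per gene symbol and barcode, with no normalization by the authors. The submitters' processing notes list Cell Ranger 2.0.2, Seurat and mm10 but not what each was used for. How cells were called, which annotation was used and whether doublets had been removed is not given in the sources used here. Doublets were kept.

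Kept cells had 500 or more genes and a mitochondrial share of UMIs of 10% at most. That limit, which caps the mtDNA genes, removed 9 KO and 2 WT barcodes. Cells of both libraries were clustered with scanpy 1.11.5 and leidenalg 0.10.2 (counts per 10000, 2000 variable genes without the respiratory and mitochondrial genes, 30 principal components, 15 neighbours, resolution 0.8, and 0.6 within NK-like cells), and clusters were named from marker lists, which may differ from the submitters' own names. UMIs were summed per library over NK-like cells and scaled to CPM. The log2 ratio adds 1 CPM to both. The size threshold is 0.32 on that scale. Genes needed 200 UMIs over both libraries, or 50 within a sub-cluster. Intervals are exact 95% Poisson (levels), conditional binomial without the added CPM (ratios) and Clopper-Pearson (shares of cells). They take UMIs as independent. No test was made. Only the log2 ratio and its interval were tried on simulated counts, drawn as independent Poisson counts as the interval assumes. Filtering, clustering, naming and thinning were not tried in this way.

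Members and lists were chosen with earlier results of these data known. Genes were named by a rule: in each complex and genome the most abundant and the most extreme members, all mtDNA genes, paralog sets, the Sdh genes, and the 2 most extreme genes of each list. It gave 64 genes. Ndufc1, Ndufv3, Ndufb2, Ndufs1, Ndufs7, Uqcr11, Uqcrq, Cyc1, Cox7b2, Ndufa11, Nrf1, Slc25a5, Slc25a3, Cycs, Gabpa, Ppargc1a, Ppargc1b and the 15 genes lower in each sub-cluster were named after their values were seen. Positions are from GENCODE M21 on GRCm38 (mm10). Atp5o has 2 records there and is given without a position. UMIs of overlapping genes and near-identical copies are uncertain. Alternatives in cell filters, scaling, thinning, clustering and make-up were run.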

Additional observations from a re-analysis of the deposited data

Results flagged for a closer look

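The log2 ratio of the mtDNA sum had opposite signs in different groups of cells, which was not tested as a difference. It was -0.15 in sub-cluster 0, -0.033 in sub-cluster 2, -0.14 in sub-cluster 3 and -0.16 in sub-cluster 4, while it was 0.051 in the T-like cluster and 0.056 in cluster 7. Each of these values compares 1 KO with 1 WT library.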

How the results depend on the processing

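No paired analysis was possible because each genotype has 1 library. The nuclear sum had a log2 ratio of -0.20 and stayed negative in all settings run. It was -0.17 in cells with no S or G2M UMI, -0.25 both when scaled to UMIs outside mitochondrial and ribosomal protein genes and with median-ratio size factors, -0.20 as the mean of each cell's CPM, and -0.19 after thinning and without sub-cluster 6. It was -0.092 with the WT proportions of sub-clusters, -0.095 with that make-up but without sub-cluster 6, and -0.087 without sub-cluster 0. In these last 3 settings the median over nuclear members was -0.085, -0.089 and -0.087. The size threshold was passed by 0, 0 and 0 members, against 4.61%, 4.78% and 5.06% of all genes. That count, 9 in the report against 8.61% of all genes, was 6 to 11 in the other settings, against 6.35% to 11.1%. Exceptions were 15 outside mitochondrial and ribosomal genes (11.0% of all genes), 19 with median-ratio factors (11.1%) and 5 with each cell's CPM (7.15%). Further exceptions were 3 without sub-cluster 6 (5.84%) and 15 in cells with no hemoglobin UMI (9.26%).

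The mtDNA sum was less stable. Its ratio of -0.063 became -0.081 with at most 5% mitochondrial UMIs, -0.083 with a gene minimum raised to 2 times the main one, -0.046 with no S or G2M UMI, -0.080 without the 3% deepest cells, -0.11 under either scaling, -0.051 as the mean of each cell's CPM, -0.093 after thinning, -0.0086 with the WT make-up and -0.074 with no hemoglobin UMI. Without sub-cluster 0 it was 0.041.

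Among values whose interval in the report excludes 0, 41 turned sign under a setting: in cells with no S or G2M UMI, complex I mtDNA sum 0.018, Ndufab1 0.065, Ndufa12 0.074, Uqcrb 0.034, Atp5b 0.0036, Ndufa6 -0.073 and mt-Nd1 0.023. With the WT make-up, complex II 0.018, complex I mtDNA 0.0088, complex V mtDNA 0.013, Sdhc 0.078, Ndufa3 0.040, Sdhd 0.043, Cox5a 0.049, Atp5h 0.015, Ndufb10 0.0069, Atp5g3 0.00086, Ndufa6 -0.0015, mt-Nd1 0.016 and mt-Atp6 0.014. With that make-up but without sub-cluster 6, complex II 0.0025, Sdhc 0.0061, Ndufa3 0.074, Ndufb7 0.018, Sdhd 0.055 and Cox5a 0.034. Without sub-cluster 0, complex I mtDNA 0.038, complex IV mtDNA 0.051, complex V mtDNA 0.056, Sdhc 0.031, Ndufa5 0.033, Ndufa3 0.075, Sdhd 0.012, Cox5a 0.0060, Atp5h 0.030, Uqcrb 0.024, Ndufa7 0.040, Ndufb7 0.00077, mt-Nd1 0.043 and mt-Atp6 0.057. The 41 include the mtDNA sum without sub-cluster 0, given above. A further 54 values whose interval includes 0 also turned. The cause was not tested. For single members, 1172 of 1496 values moved by less than their counting interval. The settings that leave out sub-cluster 0 or 6 or hemoglobin were chosen after seeing the data. Depth limits members under 200 UMIs, whose ratios are not read.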
